A study of Homo sapiens with 8 samples.

Results

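The AP-1 and immediate early genes described here are 10 of the 58302 genes of the count table, chosen by name: JUN, JUNB and JUND of the Jun family, FOS, FOSL1 and FOSL2 of the Fos family, and the immediate early genes EGR1, MYC, DUSP1 and IER3. They were found by matching their Ensembl identifiers to the symbols of GENCODE 44. These genes and the further lists below were chosen with earlier results of these data known. Their shares beside those of all genes are therefore a description only. All 10 had enough counts to be tested, with 11 to 201 counts per library, and 5368 genes were tested in all. FOSL1 was the most thinly counted of them, with 11 to 19 counts. FOSB, the Fos gene that is missing from the set, is given beside it and is never counted among the 10.

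A549 is a human lung adenocarcinoma cell line. The study compared 4 libraries labelled siCTRL, from cells given a scramble siRNA, with 4 labelled siAPEX1, from cells given an siRNA against APEX1, the gene of the DNA repair and redox protein APE1. Cells of both groups were collected 72 h after transfection, and total RNA went into a small-RNA library kit altered so that longer transcripts would be read too. All libraries come from a single cell line and a single siRNA per condition, and the labels do not say whether replicates were separate cultures, so p-values measure only the spread between these libraries.

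The libraries held 1348386 to 1949886 counts, and each siAPEX1 library was smaller than every siCTRL library, so library size and group cannot be told apart. The targeted gene was higher in the libraries that carry its label. APEX1 had 51, 61, 64 and 47 counts in the siCTRL libraries and 21150, 19470, 27916 and 20767 in those labelled siAPEX1. The paper reports, by Western blot, that its A549 cells were silenced for APE1 protein. The kit also reads small RNA, and whether these counts came from APEX1 transcripts or from the transfected siRNA was not tested. Every direction below is therefore that of the libraries labelled siAPEX1 over those labelled siCTRL. These counts alone do not show whether it is also a direction of silenced over unsilenced cells. The siAPEX1 library of replicate 2 lay apart on the second principal component (10.3% of the variance), at 22.7 against -10.1 to -2.56 for the other siAPEX1 libraries. Epithelial and detoxification markers of A549 were all measured (10 of 10). Of these markers 2 rose and 5 fell, where 15.9% of all genes tested rose and 15.8% fell. Their log2 fold changes ran from -2.31 to 0.825. The largest were those of KRT19 (-2.31), KRT18 (-1.36), KRT7 (-1.21) and KRT8 (-1.01). Of 14 markers of blood, endothelial, fibroblast, liver and red cells, 12 had at most 3 counts in every library and 5 had none in any. Their summed count was 8 to 17 per siCTRL library and 3 to 6 per siAPEX1 library. The part of these shifts in the results below was not tested. In a bulk sample, fewer cells making a transcript and less of it per cell cannot be told apart.

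AP-1 is a dimer of basic leucine zipper proteins. Jun proteins pair with one another or with a Fos protein, Fos proteins need a Jun partner, and the dimers bind the site TGACTCA or the related cyclic AMP response element, TGACGTCA. Many of these genes are immediate early genes: growth factors, stress and serum switch them on within minutes through MAP kinases, without new protein synthesis, and their short-lived transcripts then decay. APE1, also called Ref-1, is known as a redox activator that keeps a cysteine of the DNA-binding region of Jun and Fos reduced, so that AP-1 can bind DNA. In lung epithelium and its tumours AP-1 is known for driving growth, invasion and the response to injury.

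Several of these genes carry AP-1 or serum response sites in their own promoters. The AP-1 and related sites are shown because Jun and Fos dimers are known to bind them. The serum response sites are shown because EGR1 is known to be induced through them. RefSeq promoters (GRCh38.p14, 250 bases before the start to 50 after it) were at hand for 7 of the 10 genes, JUN, JUNB, JUND, FOS, FOSL2, EGR1 and DUSP1. Each line below reads 5′ to 3′ on the strand of the gene, with the matching bases in capitals.
JUN, TGACATCA at -67 to -60, chr1:58784098-58784123, minus strand: gccttggggTGACATCAtgggctatt
JUND, TGACGTCA at -200 to -193, chr19:18281806-18281831, minus strand: ccgcccccaTGACGTCAacccacaag
DUSP1, TGACGTCA at -125 to -118, chr5:172771304-172771329, minus strand: cagggcgggTGACGTCAccgccccgt
EGR1, CArG box at -105 to -96, chr5:138465366-138465391, plus strand: cggtcctgCCATATTAGGgcttcctg
EGR1, CArG box at -83 to -74, chr5:138465388-138465413, plus strand: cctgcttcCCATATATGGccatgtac
The CArG box is the site of the serum response factor, which is not among the 10 genes. FOSL2 had a TGACTCA that lies after its start, at bases 4 to 10, and DUSP1 also had the E-box CACGTG, at -108 to -103. Thus 4 of the 7 promoters held TGACTCA, TGACGTCA or the Jun-type variant TGACATCA on either strand. Of 27305 RefSeq promoters of the same length, 4.92% held TGACTCA, 1.98% TGACGTCA, 2.71% TGACATCA, 1.29% a CArG box and 7.44% CACGTG. A match in these windows is a string of letters and was not tested as a bound site.

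Across the 10 genes, 6 rose in the libraries labelled siAPEX1 and 0 fell at an adjusted p of at most 0.05, by the quasi-likelihood test of edgeR with p-values adjusted by Benjamini-Hochberg over all 5368 genes (2 rose and 1 fell with library size as the only scaling). Of all genes tested, 15.9% rose and 15.8% fell by the same rule. The genes that rose were FOS, JUN, JUND, EGR1, FOSL2 and DUSP1, and their changes ran from 0.31 to 0.995 on the log2 scale. JUNB, FOSL1, MYC and IER3 did not pass the test. The median log2 fold change of the 10 genes was 0.43, beside -0.003 for all genes tested and -0.03 for the 4870 protein-coding genes tested. None of the 10 also reached an absolute log2 fold change of 1 in edgeR with TMM factors or in DESeq2, although FOS, at 0.995, did so with RLE factors (1.001) and with TMM factors from protein-coding genes (1.043). This is a pair of thresholds that 9.28% of all genes tested passed, 3.6% higher and 5.68% lower. At an unadjusted p under 0.05 there were 7 of the 10 genes, the 6 that rose and JUNB, and DESeq2 passed 4, JUN, JUND, FOS and EGR1, and none in the other direction. In TMM-scaled CPM every siAPEX1 library stood above every siCTRL library for 5 of the 10 (JUN, JUNB, FOS, EGR1 and DUSP1). Of all genes tested, 14% did so in that direction and 28.9% in either. That separation depended on the scaling: in raw counts 0 of the 10 were higher without overlap, and 2, DUSP1 and IER3, were lower without overlap.

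**Figure D1:**
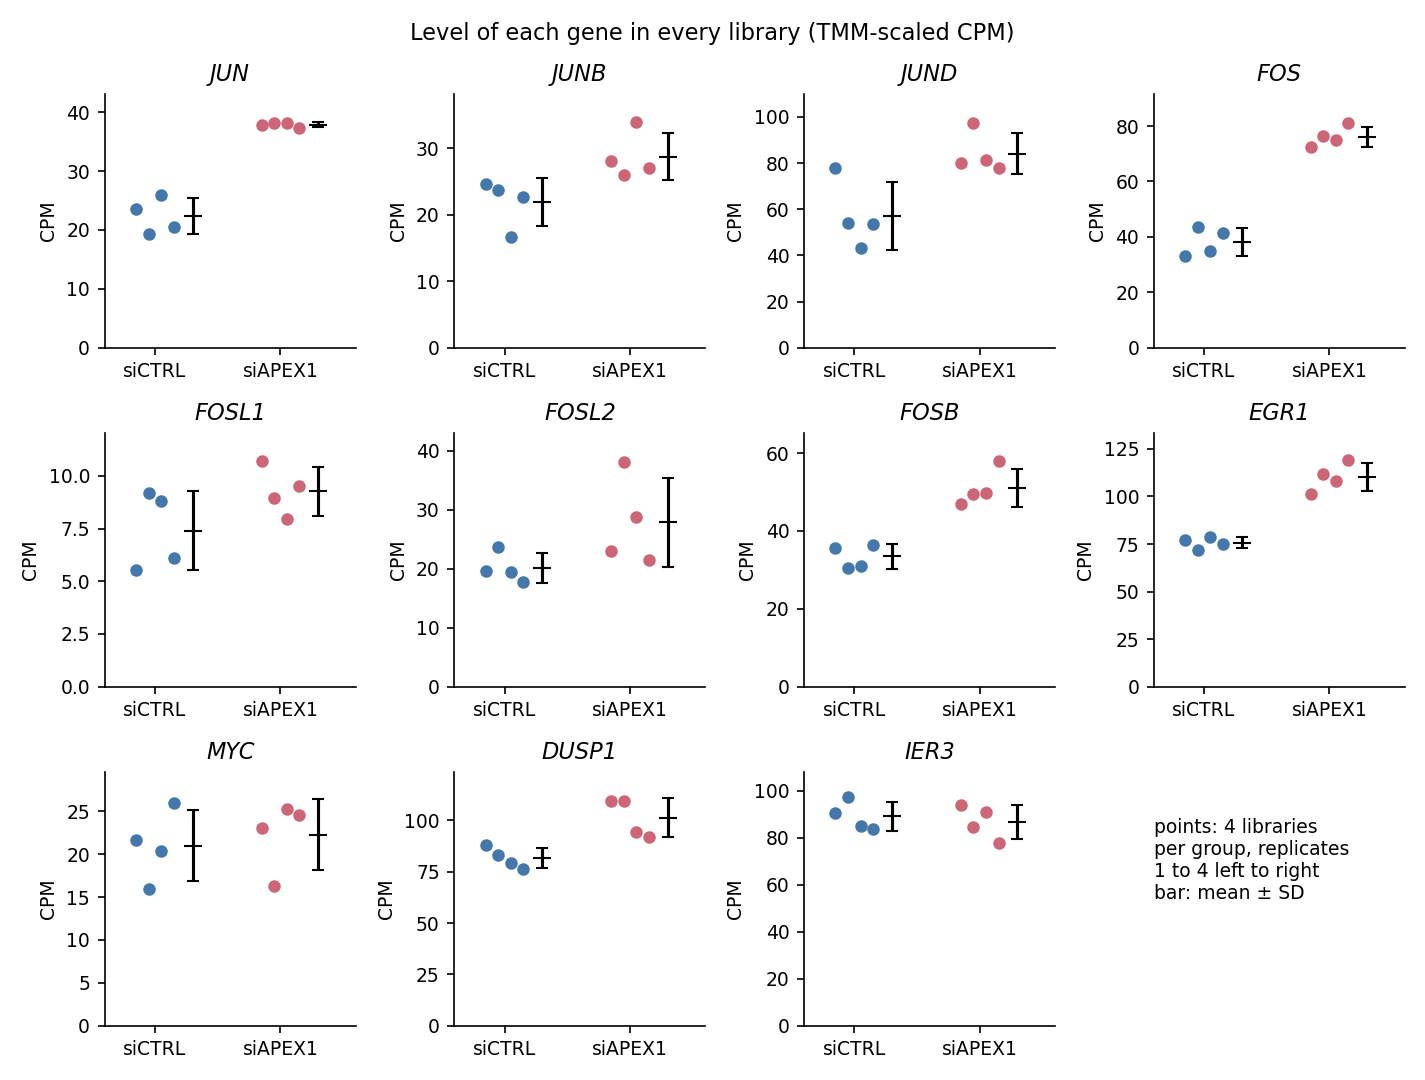
Level of each gene in each library, in CPM (counts relative to the TMM-scaled library size), with siCTRL in blue and siAPEX1 in red. Points are the 4 libraries of a group in the order of their replicate numbers, and the black mark is the mean with its SD. FOS, JUN, JUNB, FOSB, EGR1 and DUSP1 separate the groups fully, while the points of JUND, FOSL1, FOSL2, MYC and IER3 overlap.

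**Figure D2:**
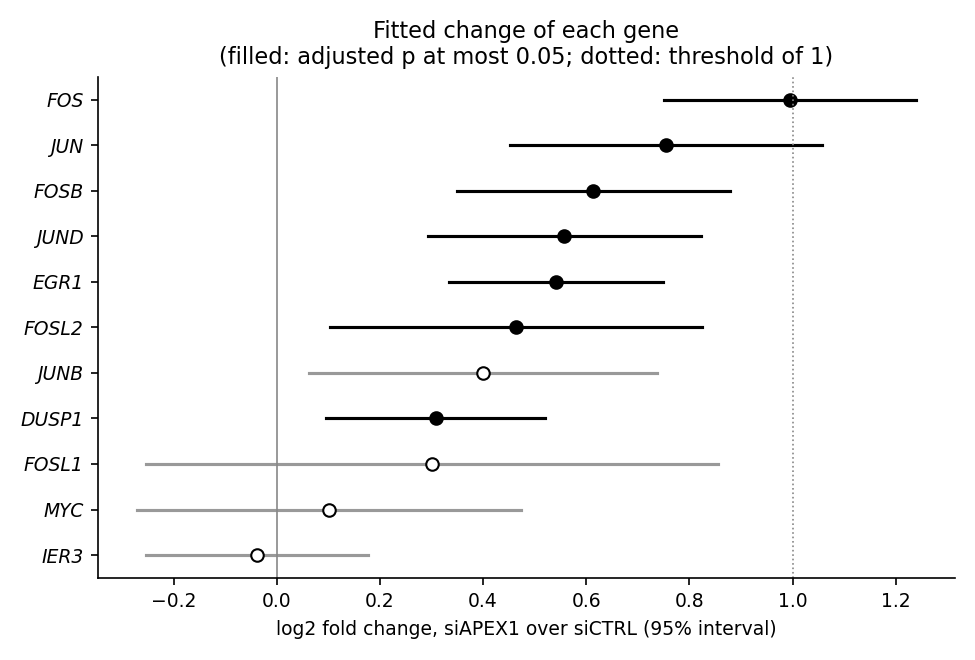
Fitted log2 fold change of siAPEX1 over siCTRL with its 95% interval for the 10 genes and FOSB, ordered by size. Filled points passed the test at an adjusted p of at most 0.05, and the dotted line marks a change of 1. FOS lies at 0.995 and IER3 at -0.04, and the intervals of FOSL1, MYC and IER3 hold 0.

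FOS, the founding member of the Fos family and a classical immediate early gene, had the largest change of the 10. It lies at chr14:75278826-75282230 on the plus strand (GRCh38). FOS was at 33.2, 43.6, 34.8 and 41.5 CPM in the siCTRL libraries and at 72.5, 76.3, 74.97 and 81.0 CPM in the siAPEX1 libraries. The lowest siAPEX1 library stood well above the highest siCTRL library. The means were 38.3 ± 5.06 and 76.2 ± 3.59 CPM (SD, n = 4), and the log2 fold change was 0.995 (SE 0.12, 95% interval 0.75 to 1.24, adjusted p = 1.11e-08). That is a 1.99-fold rise. Before scaling FOS had 66 to 90 counts per siCTRL library and 88 to 104 per siAPEX1 library, and FOS and JUN were the 2 genes of the 10 with a higher mean raw count in siAPEX1.

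The other Fos genes moved less. FOSB, whose truncated form is known for its long life in cells, was at 35.7, 30.5, 31.1 and 36.5 CPM in siCTRL and at 46.9, 49.5, 49.7 and 58.0 CPM in siAPEX1. Its groups did not overlap either, and it rose by 0.61 on the log2 scale (SE 0.13, 95% interval 0.35 to 0.88, adjusted p = 2.69e-04), a call that was lost with library size as the only scaling (0.27, adjusted p = 0.0976). FOSL2, or Fra-2, lacks the transactivation domain of FOS and lies at chr2:28392448-28417317 on the plus strand. It had 19.6, 23.7, 19.5 and 17.7 CPM in siCTRL and 23.1, 38.2, 28.8 and 21.5 CPM in siAPEX1. The siAPEX1 library of replicate 2 was the highest, and the groups overlapped. FOSL2 rose by 0.46 (SE 0.18, 95% interval 0.10 to 0.82, adjusted p = 0.0423), and without that library the change was 0.31 (adjusted p = 0.241), so the call was lost. It was also lost without siCTRL replicate 1, 3 or 4 or siAPEX1 replicate 3, with adjusted p-values of 0.0715 to 0.0892, and with library size as the only scaling (0.12, adjusted p = 0.607).

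FOSL1, or Fra-1, which is known for accumulating in invasive epithelial tumours, lies at chr11:65892049-65900573 on the minus strand. Its levels were 5.53, 9.20, 8.81 and 6.09 CPM in siCTRL and 10.7, 8.93, 7.93 and 9.53 CPM in siAPEX1. The groups overlapped, and a log2 fold change of 0.30 (SE 0.27, adjusted p = 0.445) had a 95% interval of -0.25 to 0.86. With library size as the only scaling its change was -0.04. Summed over the 4 Fos genes, the level was 99.2 ± 6.36 CPM in siCTRL and 164.4 ± 8.91 CPM in siAPEX1 (SD, n = 4), ranging from 94.0 to 107.0 and from 153.2 to 172.9 CPM.

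Of the Jun genes, JUN and JUND rose. JUN, which encodes the strongest transactivator of the family and is known to switch on its own gene through the TGACATCA site printed above, lies at chr1:58776845-58784048 on the minus strand. It had 23.6, 19.4, 25.95 and 20.5 CPM in siCTRL and 37.9, 38.2, 38.2 and 37.3 CPM in siAPEX1. The siAPEX1 libraries were almost level, with a coefficient of variation of 1.052% where counting alone would give 14.4%, so that closeness is finer than the counts can resolve. The means were 22.4 ± 3.0 and 37.9 ± 0.399 CPM (SD, n = 4), a rise of 0.75 on the log2 scale (SE 0.15, 95% interval 0.45 to 1.06, adjusted p = 1.03e-04) or 1.69-fold.

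JUND, the Jun protein that is made steadily in resting cells and tends to slow growth, lies in a single exon at chr19:18279694-18281622 on the minus strand. Its levels were 77.9, 54.2, 43.1 and 53.7 CPM in siCTRL and 79.9, 97.4, 81.5 and 77.8 CPM in siAPEX1. The siCTRL library of replicate 1 lay within the siAPEX1 range, and the siCTRL libraries varied by 25.7% where counting alone would give 9.36%. JUND rose by 0.56 (SE 0.13, 95% interval 0.29 to 0.82, adjusted p = 9.14e-04), and with library size as the only scaling its change was 0.215 and did not pass (adjusted p = 0.184). JUNB, which counters JUN at some promoters, lies in a single exon at chr19:12791486-12793315 on the plus strand. It had 24.6, 23.7, 16.7 and 22.7 CPM in siCTRL and 28.0, 25.97, 33.9 and 27.0 CPM in siAPEX1. Its groups did not overlap, yet its log2 fold change of 0.40 (SE 0.17, 95% interval 0.06 to 0.74) had an adjusted p of 0.0632 and did not pass. Without siCTRL replicate 1 or without siAPEX1 replicate 2 it did, with adjusted p-values of 0.0476 and 0.0483. JUNB shares 259 exonic bases with HOOK2 on the other strand, which had 3 to 11 counts per library, and the strand setting of the counting is not given in the sources used here. Summed over the 3 Jun genes, the level was 101.5 ± 17.3 CPM in siCTRL and 150.7 ± 8.60 CPM in siAPEX1 (SD, n = 4).

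EGR1, a zinc finger factor that serum and growth factors induce through the CArG boxes printed above, lies at chr5:138465479-138469303 on the plus strand. It stood at 76.9, 71.7, 78.8 and 75.3 CPM in siCTRL and at 101.3, 112.0, 108.1 and 119.1 CPM in siAPEX1. The gap between the groups was wider than the range within either. The means were 75.7 ± 3.02 and 110.1 ± 7.46 CPM (SD, n = 4), and EGR1 rose by 0.54 on the log2 scale (SE 0.10, 95% interval 0.33 to 0.75, adjusted p = 5.46e-05), and with library size as the only scaling the change was 0.20 and did not pass (adjusted p = 0.129). Among 1075 genes with a mean of at least 50 counts, those most like EGR1 in log2 CPM over the 8 libraries included GCC2 (Pearson r = 0.988) and PLOD2 (0.985). The 8 libraries form 2 groups that differ in size and label, so these values include the difference between the groups.

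DUSP1, a phosphatase that is induced with the immediate early genes and switches MAP kinases off again, lies at chr5:172768096-172771195 on the minus strand. It was at 88.0, 83.3, 79.3 and 76.4 CPM in siCTRL and at 109.5, 109.6, 94.4 and 92.1 CPM in siAPEX1. All siAPEX1 libraries were above all siCTRL libraries, by little. DUSP1 rose by 0.31 (SE 0.11, 95% interval 0.10 to 0.52, adjusted p = 0.0217), a 1.24-fold change, and the call was lost without siCTRL replicate 3 (adjusted p = 0.0614) or siCTRL replicate 4 (0.055). Before scaling the order was the opposite, with 138 to 175 counts per siCTRL library and 116 to 135 per siAPEX1 library, and with library size as the only scaling the fitted change was -0.03. Over the 8 libraries the genes most like DUSP1 were TGFBI (r = 0.949), SNORD9 (0.948) and SNORD63B (0.938).

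IER3, which is induced by growth factors and stress and is known to protect cells from apoptosis, lies at chr6:30743199-30744548 on the minus strand. Its annotated exons, merged over all transcripts, form 1 block of 1350 bases. The levels of IER3 were 90.5, 97.3, 84.8 and 83.6 CPM in siCTRL and 93.9, 84.4, 90.8 and 77.8 CPM in siAPEX1. The groups overlapped throughout, and the log2 fold change was -0.04 (SE 0.11, adjusted p = 0.823) with a 95% interval of -0.25 to 0.18, and 0.009 when TMM factors came from protein-coding genes. A rise as large as that of EGR1, 0.54, lies outside this interval. Before scaling IER3 was lower in siAPEX1 without overlap, with 151 to 201 counts per siCTRL library and 98 to 126 per siAPEX1 library. With library size as the only scaling it fell by 0.38 (adjusted p = 0.00401). IER3 shares 440 exonic bases with the antisense transcript IER3-AS1, which had 0 to 3 counts per library.

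MYC, the growth-promoting transcription factor that dimerises with MAX, lies at chr8:127735434-127742951 on the plus strand. It had 21.6, 16.0, 20.4 and 26.01 CPM in siCTRL and 23.1, 16.2, 25.2 and 24.6 CPM in siAPEX1. Both groups covered the same range, and the log2 fold change of 0.10 (SE 0.18, adjusted p = 0.721) had a 95% interval of -0.27 to 0.47, with -0.24 when library size was the only scaling. MYC had 20 to 47 counts per library.

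The 10 genes covered a wide span of levels, which are compared here per kilobase of exon, as CPM/kb. The length is that of all annotated exons of a gene merged, 6109 bases for MYC, and the order depends on that choice. Whether counts scale with length in these libraries was not tested. In the siCTRL libraries IER3 was highest at 66.0 ± 4.67 CPM/kb (SD, n = 4), followed by DUSP1 at 40.6, JUND at 29.7, EGR1 at 24.1, FOS and JUNB at 12.0 each, JUN at 6.17, FOSL1 at 3.93, MYC at 3.44 and FOSL2 at 2.81. Neighbours in this order whose libraries overlapped were DUSP1 and JUND, JUND and EGR1, FOS and JUNB, FOSL1 and MYC, and MYC and FOSL2. In the siAPEX1 libraries the order of the first 8 genes was kept, with IER3 at 64.3, DUSP1 at 50.4, JUND at 43.6, EGR1 at 35.1, FOS at 23.9, JUNB at 15.7, JUN at 10.5 and FOSL1 at 4.91 CPM/kb. FOSL2, at 3.89, then stood before MYC, at 3.65, with overlapping libraries. FOS and JUNB, which overlapped in siCTRL, were apart in siAPEX1, with FOS from 22.7 to 25.4 and JUNB from 14.2 to 18.5 CPM/kb.

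**Figure D3:**
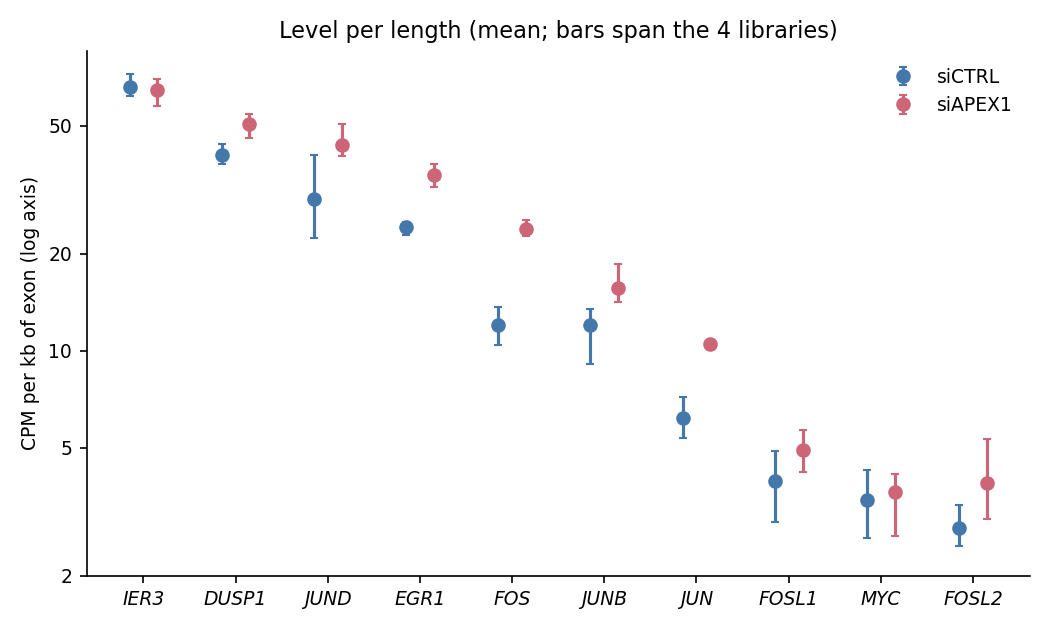
Level of each of the 10 genes per kilobase of exon on a log axis, as the mean of 4 libraries with bars from the lowest to the highest library, siCTRL in blue and siAPEX1 in red. IER3 stayed at 66.0 and 64.3 CPM/kb, while FOS went from 12.0 to 23.9 and JUN from 6.17 to 10.5.

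Whether the genes rose depended in part on how the libraries were put on a common scale. TMM factors were 1.10 to 1.14 in the siCTRL libraries and 0.873 to 0.919 in the siAPEX1 libraries. With library size alone the median change of all genes tested was -0.34, and the log2 fold changes of the 10 genes were lower by about the same amount. FOS (0.65, adjusted p = 2.17e-05) and JUN (0.41, adjusted p = 0.0269) still rose under that scaling, and IER3 fell (-0.38, adjusted p = 0.00401). FOS, JUN, JUND, EGR1, FOSL2 and DUSP1 also rose with RLE factors, with upper-quartile factors and with TMM factors from protein-coding genes, and the last of these added JUNB (0.45, adjusted p = 0.036).

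**Figure D4:**
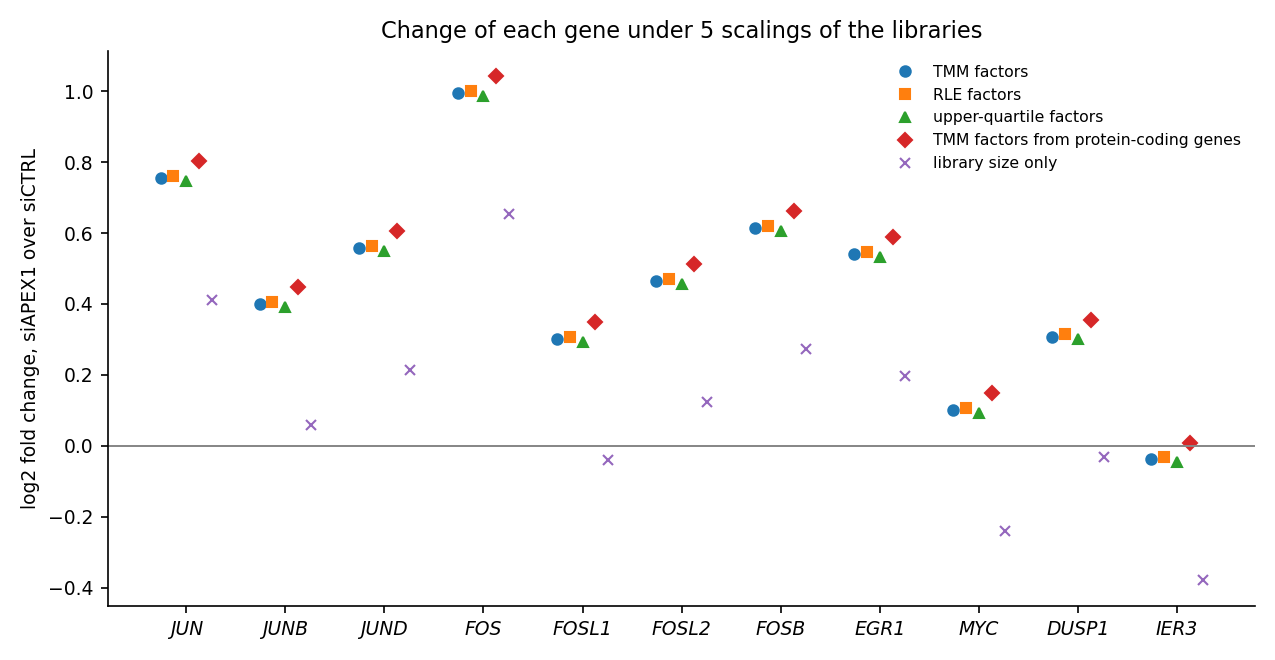
Log2 fold change of siAPEX1 over siCTRL for the 10 genes and FOSB under 5 ways of scaling the libraries. With library size only (crosses) all values lie about 0.34 lower, and FOSL1, MYC and DUSP1 fall to -0.04, -0.24 and -0.03. IER3 changes sign with TMM factors from protein-coding genes, to 0.009.

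The other AP-1 partners were mostly too thinly counted. Of 12 basic leucine zipper genes of the ATF, BATF and MAF groups, 4 were tested and 1 rose, where 15.9% of all genes tested rose. It was MAFK, a small MAF protein that pairs with Fos and NRF2 proteins. MAFK rose by 0.70 (SE 0.17, adjusted p = 0.00124), from 17.2 ± 1.55 to 28.0 ± 3.21 CPM. With library size as the only scaling 0 genes of this list passed, and 0 in DESeq2, so that call was lost. ATF2 (0.25), ATF3 (0.35) and MAFG (-0.01), named after their values were seen, did not pass.

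Further immediate early genes that passed the test were mostly higher with TMM factors, and with library size as the only scaling 9 passed, of which 4 rose and 5 fell. Of 32 listed, 24 were tested, of which 10 rose, 1 fell and 13 did not pass, where 15.9% of all genes tested rose and 15.8% fell. The median log2 fold change was 0.30, beside -0.003 for all genes tested. CCN2, a matricellular protein induced by TGF-beta and YAP, had 28, 31, 41 and 33 counts in siCTRL and 44, 46, 49 and 44 in siAPEX1, so that even its raw counts did not overlap. It rose by 1.11 (SE 0.16, adjusted p = 5.23e-07), from 16.6 ± 2.41 to 36.0 ± 1.06 CPM. ETS2, a transcription factor downstream of MAP kinase, rose by 0.95 (adjusted p = 0.00583), ID2, an inhibitor of helix-loop-helix factors, by 0.94 (adjusted p = 0.00275), and ZFP36, which speeds the decay of short-lived transcripts, by 0.80 (adjusted p = 1.79e-05). The gene that fell was ZFP36L2, a relative of ZFP36, by 0.56 on the log2 scale (adjusted p = 0.048). Only CCN2 and BTG2 also passed the threshold of 1, and BTG2, a growth-arrest gene that p53 also induces, named here after its values were seen, had 3 to 7 counts in siCTRL and 10 to 15 in siAPEX1 (1.78, adjusted p = 5.64e-05). DESeq2 passed 5 genes of this list, all higher.

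The kinase pathway that switches these genes on was measured in part. Of 25 genes from EGFR to the MAP kinases and their target factors, 10 were tested, of which 1 rose, 2 fell and 7 did not pass, with a median of 0.18. That share, 3 of 10, is close to the 31.7% of all genes tested that passed. MAP2K2, which encodes the kinase MEK2, fell by 0.58 on the log2 scale (SE 0.18, adjusted p = 0.00927), from 27.1 ± 2.41 to 18.1 ± 3.37 CPM. DESeq2 passed none of these 10 genes, and neither did edgeR without siAPEX1 replicate 4. Of 16 feedback inhibitors of the pathway, 5 were tested, of which 2 rose and 1 fell. Of all genes tested, 15.9% rose and 15.8% fell. ERRFI1, which blocks EGFR, rose by 0.58 (adjusted p = 9.28e-05) and DUSP5, a nuclear ERK phosphatase, by 0.35 (adjusted p = 0.0305). DUSP16, a phosphatase of JNK, fell by 0.82 (adjusted p = 0.00245). With library size as the only scaling 1 feedback inhibitor passed, and 2 passed in DESeq2. The median of the 5 tested inhibitors was 0.24.

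Genes that textbooks list as AP-1 targets did not share a direction. Of 28 listed, 19 were tested, of which 7 rose and 10 fell, with a median log2 fold change of -0.55. Thus 17 of 19 passed the test, where 31.7% of all genes tested did. The list was chosen with earlier results of these data known, so that contrast is a description and no evidence of a response of AP-1 targets. PLAU, the urokinase that starts pericellular proteolysis, had 56, 61, 69 and 62 counts in siCTRL and 7, 4, 11 and 6 in siAPEX1. It fell by 2.48 on the log2 scale (SE 0.23, adjusted p = 1.42e-11), from 31.0 ± 2.72 to 5.43 ± 1.96 CPM. PLAUR, its receptor, had 32, 47, 39 and 37 counts in siCTRL and 6, 11, 16 and 3 in siAPEX1 and fell by 1.44 (SE 0.27, adjusted p = 3.26e-05).

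HMGA2, a chromatin protein of embryonic and tumour cells, had 14 to 20 counts in siCTRL and 3 to 8 in siAPEX1 and fell by 1.04 (SE 0.33, adjusted p = 0.0117). AREG, the EGFR ligand amphiregulin, went the other way, with 98, 99, 100 and 79 counts in siCTRL and 125, 113, 122 and 135 in siAPEX1, higher before any scaling. It rose by 1.053 (SE 0.11, adjusted p = 4.82e-10), from 46.8 ± 2.39 to 97.5 ± 9.11 CPM. The 2 tested genes that did not pass, named after their values were seen, were LIF (-0.31) and ITGA5 (-0.67). The collagenases and related proteases MMP1, MMP3, MMP9 and MMP13 and the cytokine IL6, which are among the best known AP-1 targets, had at most 2 counts in every library, so no change in them could be measured at this depth.

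None of the 8 tested genes of 14 MYC partners and antagonists passed in edgeR or in DESeq2, and 2 had an unadjusted p under 0.05 in edgeR. Those with the most counts were MYCBP2 (0.42, 95% interval 0.05 to 0.79, adjusted p = 0.0768) and MGA (-0.39, 95% interval -0.87 to 0.08, adjusted p = 0.214). Of 30 textbook MYC targets, 21 were tested, of which 6 rose, 2 fell and 13 did not pass, with a median of 0.15, where 15.9% of all genes tested rose and 15.8% fell. TFRC, the transferrin receptor that takes up iron, rose by 1.70 (SE 0.21, adjusted p = 1.80e-08), from 8.40 ± 1.79 to 27.5 ± 5.43 CPM, and GNL3, a nucleolar GTPase, by 0.47 (adjusted p = 0.0493). SHMT2, the mitochondrial serine enzyme of one-carbon metabolism, fell by 0.95 (adjusted p = 0.00768), and NCL, the nucleolar protein nucleolin, fell by 0.65 (adjusted p = 4.24e-06).

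**Figure D5:**
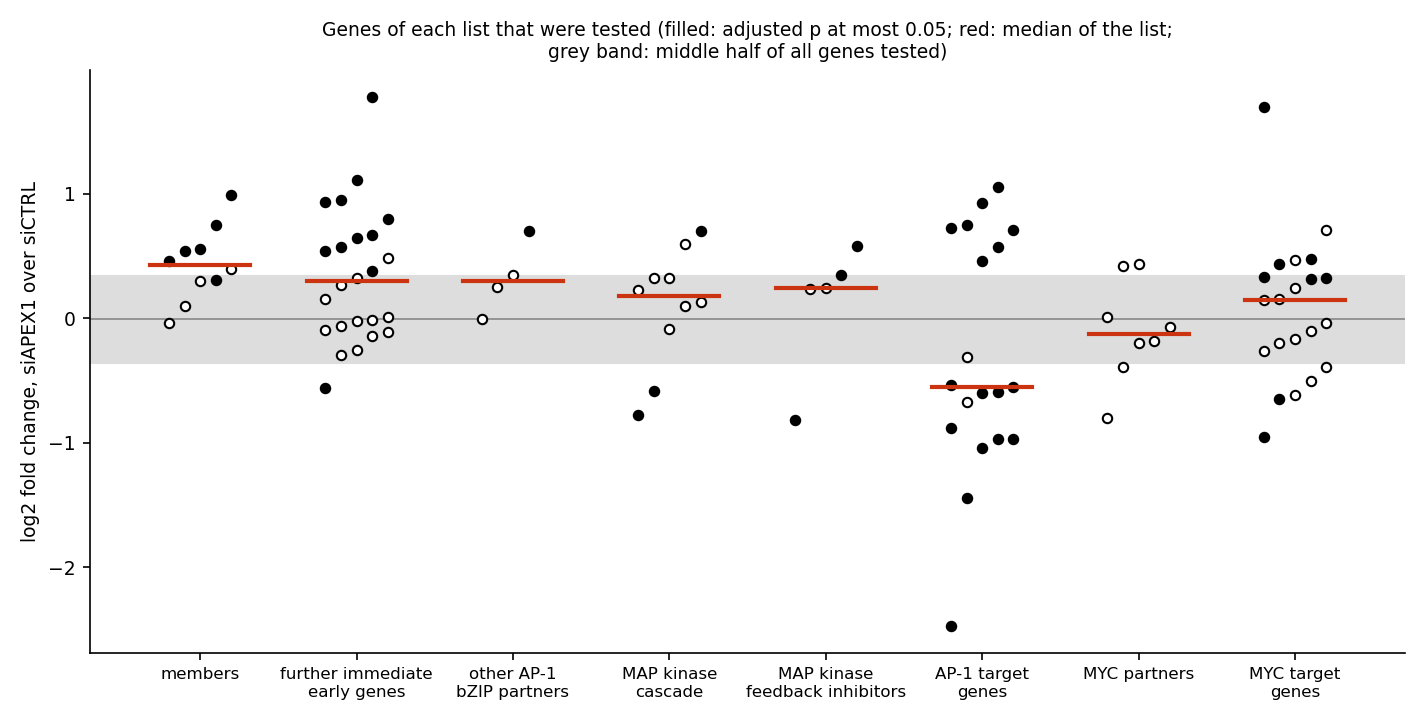
Log2 fold change of siAPEX1 over siCTRL for each tested gene of the 10 and of 7 further lists, filled where the adjusted p was at most 0.05, with a red line at the median of the list and a grey band for the central range of all genes tested, from the 25th to the 75th percentile. The medians of the 10 genes (0.43) and of the further immediate early genes (0.30) lie above 0 on this TMM scale, on which all values are about 0.34 higher than with library size only, and the AP-1 targets spread from -2.48 to 1.053 with a median of -0.55.

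The promoter sites printed above were also looked up in all tested genes with a RefSeq promoter, 4098 genes, of which 12.5% rose and 15.4% fell. Among the 114 with TGACTCA, 11.4% rose and 17.5% fell, with a median log2 fold change of -0.001. For the 151 genes with TGACGTCA the shares were 18.5% and 8.61% (median 0.15), and for the 54 with TGACATCA 22.2% and 9.26% (median 0.09). Of 58 genes with a CArG box 8.62% rose and 19.0% fell, and of 55 with the EGR site GCGTGGGCG 3.64% rose and 20% fell, with medians of -0.09 and -0.04. The 429 genes with CACGTG, the E-box that MYC and MAX bind, had a median of 0.006. These shares are given as a description, and the letters TGACGTCA contain the core of other ATF and CREB sites.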

How the data were processed

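RNA-seq of A549 cells gave 8 libraries, 4 labelled siCTRL and 4 labelled siAPEX1. Per the study's methods and the submitters' processing notes, the authors called bases with CASAVA, trimmed adapters and tails with cutadapt, aligned reads to GRCh38 with STAR 2.5.3a and counted them per Ensembl gene. The deposited values are these raw counts. The annotation release and strand setting are not given in the sources used here. Of 58302 identifiers, 57532 matched GENCODE 44, from which positions and exon lengths were taken.

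Genes were kept with filterByExpr of edgeR 4.0.16 (R 4.3.3, minimum count 10, minimum total 15) and scaled with TMM factors. The fit held the group and no covariate. The quasi-likelihood F test was adjusted by Benjamini-Hochberg over all 5368 genes. The thresholds were an adjusted p of 0.05 and, for a call, also an absolute log2 fold change of 1. The standard error is the log2 fold change divided by the square root of F. CPM use TMM-scaled library sizes, and log2 CPM a prior count of 2. The common biological coefficient of variation was 0.0832. Programs were tested on simulated counts. Alternatives were other scalings, DESeq2 1.42.0, other filters, a fold threshold of 0.75, the replicate number as a block, APEX1 left out and each library left out.

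The 10 genes and the further lists were chosen with earlier results of these data known. Genes are named by this rule: the 10, FOSB and APEX1, up to 4 passing genes per list with the largest change and a mean of at least 10 counts (or, with none passing, the 2 with most counts), and the 3 genes most correlated with each of the 2 members of highest CPM. Others are marked as chosen after their values were seen. Some genes that this rule names are not reported here.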

Additional observations from a re-analysis of the deposited data

How the results depend on the processing

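FOS, JUN, JUND and EGR1 rose under DESeq2, with no filter on low counts, with at least 10 counts in every library, with APEX1 left out (chosen after seeing the data) and without each library in turn. With library size only, which moved the median of all genes tested to -0.34, 2 of the 10 genes rose and 1 fell, and 84 genes were higher and 655 lower past both thresholds. JUND (0.215), FOSL2 (0.122), EGR1 (0.198) and FOSB (0.272) then missed the adjusted p, IER3 (-0.380) passed it, and FOSL1 (-0.039), MYC (-0.241) and DUSP1 (-0.033) changed sign. Under the same scaling 0 other AP-1 partners, 1 feedback inhibitor and 2 MYC partners passed, 4 AP-1 targets rose and 11 fell, and 4 further immediate early genes rose and 5 fell. TMM factors from protein-coding genes carried JUNB (0.448) past the test, turned IER3 to 0.009, and passed 1 MYC partner. FOS passed both thresholds with those factors, with RLE factors and with APEX1 left out (1 in each). DESeq2 passed 876 genes against 1703, took FOSL2 (0.450, adjusted p = 0.314) and DUSP1 (0.292, 0.186) off, and passed 0 other AP-1 partners, 5 further immediate early genes, all 5 higher, 0 genes of the MAP kinase cascade, 3 MYC targets and 4 AP-1 targets that rose. With no filter 295 genes were higher and 648 lower past both thresholds, FOSL2 (0.369) and DUSP1 (0.213) missed the adjusted p, and 1 gene of the MAP kinase cascade, 5 MYC targets and 4 AP-1 targets that rose passed. With at least 10 counts in every library, where fewer genes were tested, 81 were higher and 100 lower, FOSL2 (0.377) and DUSP1 (0.221) missed the adjusted p and 4 MYC targets passed. A fold threshold of 0.75 gave 404 genes higher and 531 lower, and 2 of the 10 genes, FOS and JUN. Without each library in turn, 4 to 6 of the 10 genes rose, 0 to 1 passed both thresholds, and the log2 fold change ran from 0.282 to 0.469 for JUNB, 0.307 to 0.594 for FOSL2, -0.011 to 0.247 for MYC, 0.282 to 0.376 for DUSP1 and -0.063 to 0.035 for IER3, with MYC below 0 without siCTRL replicate 2 and IER3 above 0 without siCTRL replicate 2 or siAPEX1 replicate 4. The passing genes then numbered 0 to 3 for the MAP kinase cascade and 5 to 9 for MYC targets. The causes of these shifts were not tested. The replicate numbers did not pair the libraries, with correlations of -0.0373 to -0.00348 between same-numbered deviations, and the replicate block gave 6 of the 10 genes higher and 1595 genes past the adjusted p, with no other call of the 10 genes changed. Depth limits FOSL1, whose 95% interval at 11 to 19 counts per library was the widest of the 10, and the 8 other AP-1 partners and 9 AP-1 targets that were too low to test. Dixon's check of the highest and lowest library in each of 22 groups of 4 marked none.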
